A study of Mus musculus with 3 samples.

Results

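A set of genes with which smooth muscle cells and contractile fibroblasts build and regulate their contractile filaments was examined in NIH3T3, a fibroblast line established from mouse embryos. The genes are Acta2, Tagln, Cnn1, Myh11, Myl9, Tpm1, Tpm2, Cald1, Des and Lmod1, and each was taken as the row that carries its gene name, which gave 10 genes of the 55573 listed. The set was chosen by biological role but with the FPKM values of these libraries already known, Acta2 and the nearly absent Tagln above all, so their levels are given as a description and without a test. The data are UMI-RNAseq of 3 libraries, called library 1, library 2 and library 3 after their replicate numbers, all from NIH3T3 cells grown in DMEM with fetal bovine serum and no treatment, harvested with trypsin. They form 1 condition, so no groups could be compared. Nothing in the sources ties the libraries to separate cultures, and the SDs given here may therefore measure only technical variation.

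Smooth muscle contracts when myosin II filaments pull on actin filaments, and the genes examined encode parts of this machinery. Acta2 encodes smooth muscle alpha actin, which myofibroblasts also make. Myh11 and Myl9 encode a heavy chain and a regulatory light chain of myosin II. Tpm1, Tpm2, Cald1, Cnn1, Tagln and Lmod1 encode proteins that bind actin filaments, and Des encodes desmin, an intermediate filament protein of muscle. Serum response factor (SRF), with its cofactors myocardin and the MRTF proteins, binds a short promoter element, the CArG box, and drives many of these genes, while TGF-beta signalling raises several of them in fibroblasts. Tpm1, Tpm2 and Cald1 are also transcribed outside muscle, from other promoters or with other exons.

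Values are FPKM, in which the fragments of a gene are divided by its length in kilobases and by the library total in units of 1000000 fragments, so levels of different genes can be set side by side per length. The fragments behind each value were recovered from the deposited numbers, and totals lay between 13959723 and 14423209 fragments per library. An FPKM of 1 or more was taken as a working limit for a gene that is clearly detected. Of fibroblast markers, 9 of 10 had a mean FPKM of 1 or more, against 49.2% of protein-coding genes. Fn1 was the highest at 4377, and Lum was listed at 0. The labels mention retina in their extraction text, but of 7 retina markers none reached a mean of 1, their summed level lay between 0.876 and 1.61 FPKM, Crx lay between 0 and 0.0385 FPKM, and Nrl was listed at 0. Summed levels stayed between 0.0241 and 0.116 FPKM for 6 blood cell markers and between 2.71 and 3.38 FPKM for 6 endothelial markers. The libraries resembled each other closely. In a chi-square test of the recovered fragments over 15144 genes, 278 differed beyond counting error, or 1.84% of them.

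The contractile genes fell into a group with abundant transcripts and a group with almost none. Cald1, Tpm1, Tpm2 and Acta2 had a mean between 34.6 and 234.3 FPKM, Des and Myl9 lay close to 1 FPKM, and Tagln, Cnn1, Myh11 and Lmod1 lay below 0.2 FPKM. The mean was 1 or more for 6 of the 10 genes, against a background of 23.2% of all genes listed and 49.2% of protein-coding genes. Nothing follows from this share, since the genes were chosen with their levels known. The median of the 10 means was 1.04 FPKM, against 0.804 over protein-coding genes. The genes with the highest levels, Cald1, Tpm1, Tpm2 and Acta2, held 36122 fragments in all libraries together, or 99.7% of the fragments of the whole set, while the 4 lowest held 23.

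**Figure D1:**
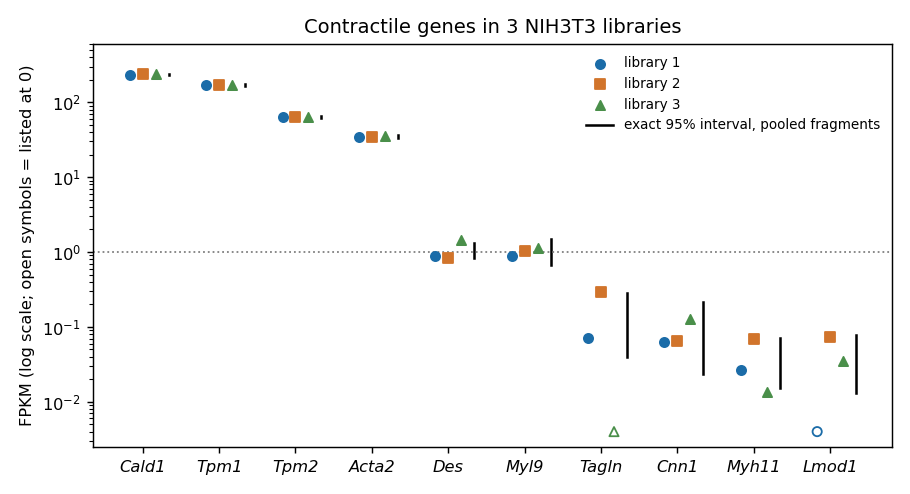
FPKM of each contractile gene on a log axis, with 1 symbol per library, open symbols for values listed at 0, and a dotted line at 1 FPKM. Black bars are exact 95% intervals of the fragments pooled over the libraries, and they separate Acta2 at 34.6 FPKM from Des and Myl9 near 1 and from the 4 genes below 0.2.

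Cald1, which encodes caldesmon, an actin and myosin binding protein that restrains the actomyosin ATPase, was the highest of the set. Cald1 (ENSMUSG00000029761, GRCm38 chromosome 6 from 34598500 to 34775473, plus strand) had 228.8, 238.3 and 235.9 FPKM in libraries 1, 2 and 3. Its mean of 234.3 ± 4.92 FPKM (SD, n = 3) ranked 413 among the 12905 genes with a mean of 1 or more. It rested on 6630, 6682 and 6780 fragments. Its coefficient of variation was 2.10%, against 1.22% from counting error alone. Among Cald1, Tpm1, Tpm2 and Acta2, only Cald1 had a coefficient above its counting error. The chi-square test did not call this spread (adjusted p = 0.556).

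Tpm1 encodes alpha tropomyosin, which lies along the actin filament and controls the access of myosin. Tpm1 (ENSMUSG00000032366, chromosome 9 from 67022590 to 67049406, minus strand) had 170.1, 168.5 and 171.4 FPKM in libraries 1, 2 and 3, and its mean was 170.0 ± 1.48 FPKM (SD, n = 3). Cald1 lay above Tpm1 by a factor of 1.38 ± 0.0346 (SD, n = 3), and their values did not overlap between libraries. Tpm2, the beta tropomyosin gene (ENSMUSG00000028464, chromosome 4 from 43514711 to 43523765, minus strand), had 63.4, 62.6 and 63.9 FPKM in libraries 1, 2 and 3. Tpm1 exceeded Tpm2 by a factor of 2.69 ± 0.00477 (SD, n = 3), a ratio that was nearly the same in every library. Counting error alone gives coefficients of variation of 1.70% for Tpm1 and 2.94% for Tpm2, so this SD understates the uncertainty of the ratio. The coding sequences of both begin alike, and their longest identical run is made of their first 35 bases, shown here because it marks how far reads of the pair can coincide:
Tpm1 and Tpm2, coding bases 1 to 35: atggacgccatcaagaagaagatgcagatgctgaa
Neither gene shares a 75-nt word with an annotated transcript of any other gene.

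Acta2 (ENSMUSG00000035783, chromosome 19 from 34241090 to 34255590, minus strand) had 34.3, 34.1 and 35.5 FPKM in libraries 1, 2 and 3. Its mean was 34.6 ± 0.748 FPKM (SD, n = 3), at rank 4025, above 68.8% of the genes with a mean of 1 or more. The protein-coding genes nearest in level were Cox5a, a subunit of cytochrome c oxidase, with a mean of 34.6 FPKM just above it, and Gpd2, a mitochondrial glycerol phosphate dehydrogenase, with 34.6 just below. Acta2 rested on 707, 681 and 726 fragments, and its coefficient of variation of 2.16% was smaller than the 3.77% that counting error alone gives. Tpm2 lay above Acta2 by a factor of 1.83 ± 0.0249 (SD, n = 3). The order Cald1, Tpm1, Tpm2, Acta2 held in each library, with no overlap between neighbours.

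In fibroblasts most actin is cytoplasmic, and Acta2 made up a small part of the actin family. Its share of the summed FPKM of the 6 actin genes was 1.13%, 1.20% and 1.18% in libraries 1, 2 and 3. Actb and Actg1, the cytoplasmic beta and gamma actins, had means of 1918 and 1005 FPKM. The value of Actg1 is less certain, since 33.5% of its 75-nt words also occur in annotated pseudogenes. Actin genes of other muscles were near the lower end. Acta1 of skeletal muscle and Actg2, the gamma actin of visceral smooth muscle, lay between 0 and 0.139 FPKM, and Actc1 of heart was listed at 0 in every library. Acta2 shared no 75-nt word with an annotated transcript of another gene, although actin coding sequences are alike. Its longest identical coding run is with Actg1, 56 bases long, and is shown because a read that lies within it fits either gene:
Acta2, coding bases 910 to 965: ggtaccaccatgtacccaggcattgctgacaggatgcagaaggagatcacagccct
The longest run with Actb covers the first 47 of these bases. Reads were 150 nt long, so a read that spans the run reaches sequence that differs.

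Des and Myl9 stood well below Acta2 and could not be ordered between themselves. Des (ENSMUSG00000026208, chromosome 1 from 75360329 to 75368579, plus strand) had 0.895, 0.832 and 1.44 FPKM in libraries 1, 2 and 3, on 20, 18 and 32 fragments. Myl9 (ENSMUSG00000067818, chromosome 2 from 156775420 to 156781658, plus strand) had 0.895, 1.04 and 1.13 FPKM in the same libraries, on 8, 9 and 10 fragments. Des and Myl9 were equal to 3 digits in library 1, Des was lower in library 2 and higher in library 3, and the exact Clopper-Pearson 95% intervals of their pooled fragments overlapped, from 0.825 to 1.34 FPKM for Des and from 0.672 to 1.48 FPKM for Myl9. These intervals cover counting error only. Whether they reach the limit of 1 FPKM rests on library 3, since without it the means were 0.864 for Des and 0.967 for Myl9. Against their relatives both were minor. Vimentin (Vim), the intermediate filament protein of mesenchymal cells, had a mean of 1489 FPKM, and Des made up 0.0711% ± 0.0231 (SD, n = 3) of the pair.

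Myl9 held 1.73% ± 0.202 (SD, n = 3) of the summed FPKM of the regulatory light chains Myl9, Myl12a and Myl12b. Myl12a, which pairs with non-muscle myosin heavy chains, had a mean of 57.1 FPKM, whereas Myl12b, its close neighbour on chromosome 17, had 0.653, 0.742 and 1.18 FPKM. The low value of Myl12b is uncertain, because 26.7% of its exonic length is overlapped by a second gene model on the same strand and 24.7% of its 75-nt words also occur in another gene, while Myl12a shares 18.5% of its words. The part of this sharing in the family share was not tested. Myl9 itself shares no such word. Its longest identical coding run with either Myl12 gene is 35 bases, shown for the same reason as above:
Myl9, coding bases 67 to 101: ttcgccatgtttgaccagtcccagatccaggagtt

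Genes that define differentiated smooth muscle were close to absent. Myh11, the smooth muscle myosin heavy chain (ENSMUSG00000018830, chromosome 16 from 14194535 to 14291372, minus strand), had 0.0265, 0.0684 and 0.0133 FPKM in libraries 1, 2 and 3, on 2, 5 and 1 fragments. Cnn1, which encodes the smooth muscle calponin (ENSMUSG00000001349, chromosome 9 from 22099216 to 22109630, plus strand), had 0.0631, 0.0652 and 0.127 FPKM, on 1, 1 and 2 fragments. Lmod1, which encodes the actin filament nucleator leiomodin of smooth muscle (ENSMUSG00000048096, chromosome 1 from 135324807 to 135368065, plus strand), was listed at 0 in library 1 and had 0.0726 and 0.0354 FPKM in libraries 2 and 3, on 4 and 2 fragments. The exact 95% interval of this 0 in library 1 reached up to 0.0648 FPKM. In the order Tagln, Cnn1, Myh11 and Lmod1, the pooled 95% intervals of neighbours overlapped. Overlap is not a test of difference, and genes that are not neighbours were not compared, so the order was not settled. The upper ends of these intervals lay between 0.0705 and 0.283 FPKM, below the lower ends for Des and Myl9.

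The relatives of these genes that non-muscle cells use were abundant. Non-muscle myosin heavy chains Myh9 and Myh10 had means of 956.3 and 118.7 FPKM, and Myh11 made up 0.00333% ± 0.00260 (SD, n = 3) of the summed FPKM of Myh9, Myh10, Myh11 and Myh14, or 0.00187% without library 2. Calponin genes Cnn2 and Cnn3 had 66.4 and 200.7 FPKM, and Cnn1 made up 0.0320% ± 0.0139 (SD, n = 3) of the calponins. Tropomyosin genes Tpm3 and Tpm4 had 441.6 and 260.6 FPKM, and Tpm1 and Tpm2 together made up 24.9% ± 0.102 (SD, n = 3) of the tropomyosins. Tmod3, a tropomodulin that caps actin filaments in many cell types, had 77.0 FPKM, while Lmod2 and Lmod3 were listed at 0. In each family that held a gene of the set, a different gene had the highest FPKM.

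**Figure D2:**
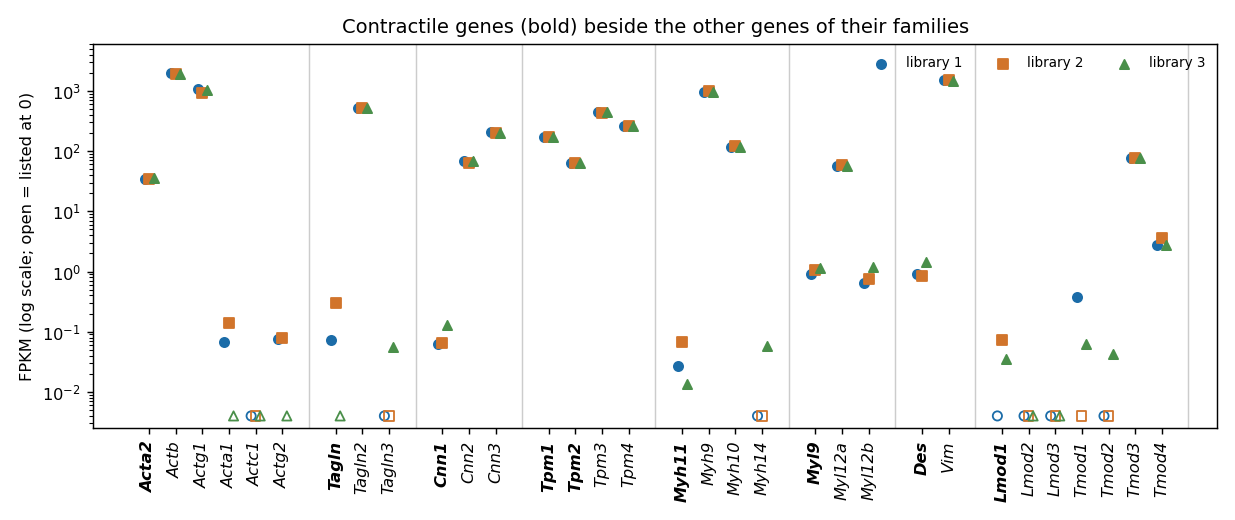
FPKM on a log axis of each contractile gene (bold) and the other genes of its family, with 1 symbol per library and open symbols for values listed at 0. Tagln, Cnn1, Myh11 and Lmod1 sit below 0.3 FPKM beside Tagln2, Cnn3, Myh9 and Tmod3, whose means lie between 77.0 and 956.3 FPKM.

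Tagln, which encodes transgelin (SM22 alpha), a calponin-related protein that bundles actin, was nearly absent while Acta2 was not. Tagln (ENSMUSG00000032085, chromosome 9 from 45929619 to 45936058, minus strand) had 0.0718 FPKM in library 1 and 0.297 FPKM in library 2, and was listed at 0 in library 3. It rested on 1 fragment, 4 fragments and 0 fragments. The exact 95% interval of the 0 in library 3 reached up to 0.267 FPKM. The mean of Tagln, 0.123 ± 0.155 FPKM (SD, n = 3), rests on library 2, without which it was 0.0359. The protein-coding genes nearest in level were Klra5, a killer cell lectin-like receptor gene, and Saa4, a serum amyloid A gene, both with a mean of 0.123 FPKM. In library 1, Acta2 lay above Tagln by a factor of 477, with an exact 95% interval from 85.4 to 18877. The factor was 115 in library 2, with an interval from 44.7 to 423.0. In library 3, where Tagln had 0 fragments, a floor of 3 fragments gave a factor of 163. The lower limit of the exact 95% interval there was 133. Over the pooled fragments, 2114 for Acta2 and 5 for Tagln, the factor was 285, with an interval from 122 to 879.9. With the floor of 3 fragments in place of the counts of 1 and 0 in libraries 1 and 3, the mean log2 ratio was 7.17. The floor lowers the ratio in those libraries, and 7.17 is not a confidence limit. The pair was chosen for this difference, so the ratio was not tested.

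Tagln2, the paralog that most non-muscle cells express, had 527.0, 517.9 and 515.2 FPKM, and Tagln made up 0.0136%, 0.0572% and 0% of the transgelin family in libraries 1, 2 and 3. The mean share of 0.0236% ± 0.0299 (SD, n = 3) fell to 0.00681% without library 2. Tagln3 of neurons had 0.0564 FPKM in library 3 and was listed at 0 in the others. The longest identical run of their coding sequences is 15 bases, shown here against the 56 bases that Acta2 shares with Actg1:
Tagln, coding bases 442 to 456: gatcccaactggttt

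A feature of the annotation set Tagln apart from the other contractile genes. On the opposite strand, the exons of Gm48529, an antisense RNA gene (chromosome 9 from 45930112 to 45933738), cover 1241 nt of the exonic sequence of Tagln, and the last exon of Pcsk7 covers a further 108 nt. Together they overlap 67.9% of the 1988 exonic nt of Tagln and 100% of its 603 coding nt. Of the other contractile genes, Des was overlapped over 5.86% of its exonic length and the remaining 8 over none. The exonic sequence of Tagln outside other exons measures 639 nt, of which 225 nt are the first exon and 385 nt lie in the last. Gm48529 had a mean of 0.124 FPKM and was as low as Tagln, with 0.0459, 0.142 and 0.185 FPKM, while Pcsk7, a proprotein convertase, had 15.0, 14.6 and 15.6 FPKM.

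**Figure D3:**
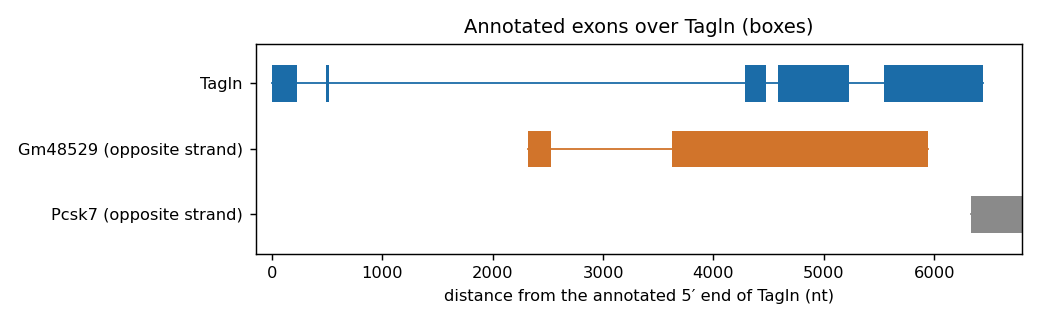
Annotated exons (boxes) of Tagln and of the genes on the opposite strand, by distance in nt from the annotated 5′ end of Tagln. The long exon of Gm48529 measures 2327 nt and spans the coding exons of Tagln, which leaves the first exons and 385 nt of the last exon outside.

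HTSeq by default does not count a read that falls on 2 genes, and without strand a read of Tagln in this stretch cannot be told from a read of Gm48529. The labels name an Illumina TruSeq RNA kit, and the strand setting used for counting is not given in the sources used here. Over all protein-coding genes, those with at least as much opposite-strand overlap as Tagln numbered 107, or 0.487% of the total, and 6 of these, or 5.61%, had a mean of 1 FPKM or more. Among the 15432 protein-coding genes with no overlap, 44.1% did. The share was higher, at 66.2%, for genes with some but less than 50% of their exonic length overlapped. It was 39.3%, or 53 of 135 genes, for those with 50% to under 80%. Tagln, at 67.9%, lies in this last range, which also holds genes with less overlap than Tagln. The 39.3% is therefore not the share at the overlap of Tagln, and at or above that overlap it was 5.61%. Of these 107 genes, 74 had 80% or more overlapped, among them 4 of the 6 that reached 1 FPKM. Cnn1, Myh11 and Lmod1 were as low as Tagln with 0% of their exonic length overlapped. The part of the overlap in the low value of Tagln was not tested.

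**Figure D4:**
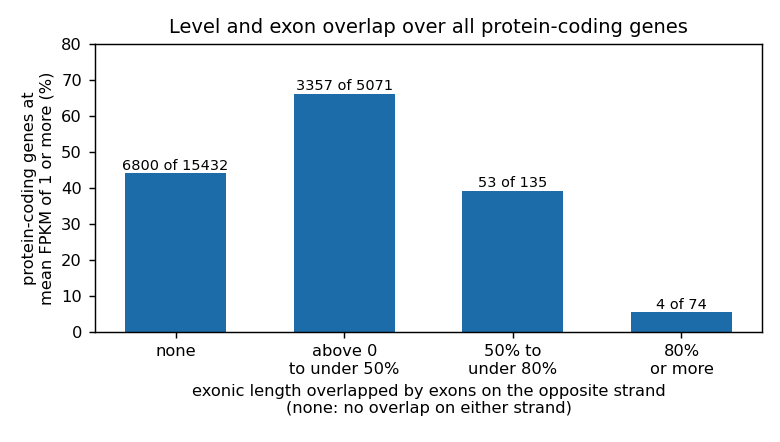
Share of protein-coding genes with a mean FPKM of 1 or more (bars, in percent, with counts above), by the share of exonic length that lies under exons of the opposite strand. The share is 44.1% without overlap, 66.2% under 50%, 39.3% from 50% to under 80% and 5.41% among the 74 genes with 80% or more overlapped. Tagln, at 67.9%, falls in the bar from 50% to under 80%. Among the 107 genes with at least its overlap the share is 5.61%.

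The libraries were also compared gene by gene. Of the 10 genes, 6 had enough fragments for the chi-square test, which needs at least 5 expected in each library. By this test with Benjamini-Hochberg adjustment over all genes tested, 0 of the 6 were called, against the background of 1.84%, and the count at an unadjusted p under 0.05 was also 0. The chi-square per degree of freedom was highest for Cald1, at 2.96, and for Des, at 2.36, and lay between 0.121 and 0.329 for Acta2, Tpm1, Tpm2 and Myl9. The median over all genes tested was 0.789.

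FPKM depends on the gene length behind it, and the values imply the mean length of the annotated isoforms. This length was 1431 nt for Acta2, from 2 isoforms, and 966 nt for Tagln, from 3. Tpm1 has 21 annotated isoforms of 649 to 2890 nt and Cald1 has 18 of 262 to 4777 nt, and the table gives no value per isoform, so muscle and non-muscle isoforms of these genes could not be told apart. Divided by the length of the longest isoform instead, Cald1 had 98.5 FPKM, Tpm1 84.6, Tpm2 37.5 and Acta2 24.3, in the same order.

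Other smooth muscle genes lay at both levels. Of 10 further genes of the contractile apparatus and its membrane, 3 had a mean of 1 FPKM or more, against a background of 23.2% of all genes listed and 49.2% of protein-coding genes. These were Smtn, which encodes smoothelin, with 34.7 FPKM, Hspb6, a small heat shock protein of muscle, with 8.30 FPKM, and Mylk, the myosin light chain kinase gene, with 7.36 FPKM. The others, Synpo2, Pln, Kcnmb1, Itga8, Casq2, Aoc3 and Pgm5, each lay below 0.5 FPKM in every library. Of the genes that set the phosphorylation of myosin light chains, 6 of 8 reached a mean of 1, among them Rhoa with 201.4 FPKM, Rock2 with 74.3 FPKM and Ppp1r12a, the myosin-targeting subunit of the phosphatase, with 70.7 FPKM. Ppp1r14a, the phosphatase inhibitor CPI-17 of smooth muscle, was listed at 0 and Prkg1, the cGMP-dependent kinase gene, had a mean of 0.0657 FPKM. The list medians were 0.251 FPKM for the further smooth muscle genes and 52.5 FPKM for the kinase and phosphatase genes, against 0.804 FPKM over protein-coding genes.

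Regulators of the contractile genes reached a mean of 1 FPKM or more, apart from myocardin. Srf had 55.5, 46.3 and 45.1 FPKM in libraries 1, 2 and 3, and differed between them beyond counting error (chi-square test, adjusted p = 0.00421). The cofactor genes Mrtfa and Mrtfb had means of 34.4 and 22.6 FPKM, whereas Myocd, which encodes the muscle-restricted cofactor myocardin, was listed at 0 in every library. Klf4, a repressor of smooth muscle genes, had the highest level of the list, with 234.4, 231.0 and 225.0 FPKM. The TEAD pathway genes Tead1, Yap1 and Wwtr1 lay between 54.6 and 161.2 FPKM. Klf5 and Elk1 were lower, with means of 11.5 and 7.15 FPKM. Counted together, 9 of 10 genes of the SRF list had a mean of 1 or more, with a median of 41.7 FPKM. The background was 23.2% of all genes listed and 49.2% of protein-coding genes.

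Genes of TGF-beta signalling reached a mean of 1 FPKM in 10 of 11 cases, with a median of 30.1 FPKM. Over all genes listed the share was 23.2%, and over protein-coding genes it was 49.2%. The ligand gene Tgfb1 had 69.4, 68.0 and 63.0 FPKM, Tgfb3 had a mean of 9.94 FPKM, and Tgfb2 was listed at 0 in libraries 1 and 3. The receptor genes Tgfbr1 and Tgfbr2 had 26.4 and 11.7 FPKM, and the signal transducer Smad3 had 112.1 FPKM.

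Of 14 other known targets of SRF and MRTF, 13 lay well above Tagln and had a mean of 1 FPKM or more. Such a mean was reached by 23.2% of all genes listed and 49.2% of protein-coding genes. The median of the 14 genes was 74.4 FPKM. Adhesion and actin binding genes led the list, with Zyx at 342.8 FPKM, Flna at 324.6 FPKM and Tln1 at 253.2 FPKM. Vcl, which encodes vinculin, had 69.2 FPKM, and the matricellular genes Ccn1 and Ccn2 had 119.2 and 69.6 FPKM. The exception, the LIM domain gene Fhl1, had 0.143, 0 and 0.0480 FPKM and was as low as Tagln. Counts and medians of these lists describe transcript levels only.

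**Figure D5:**
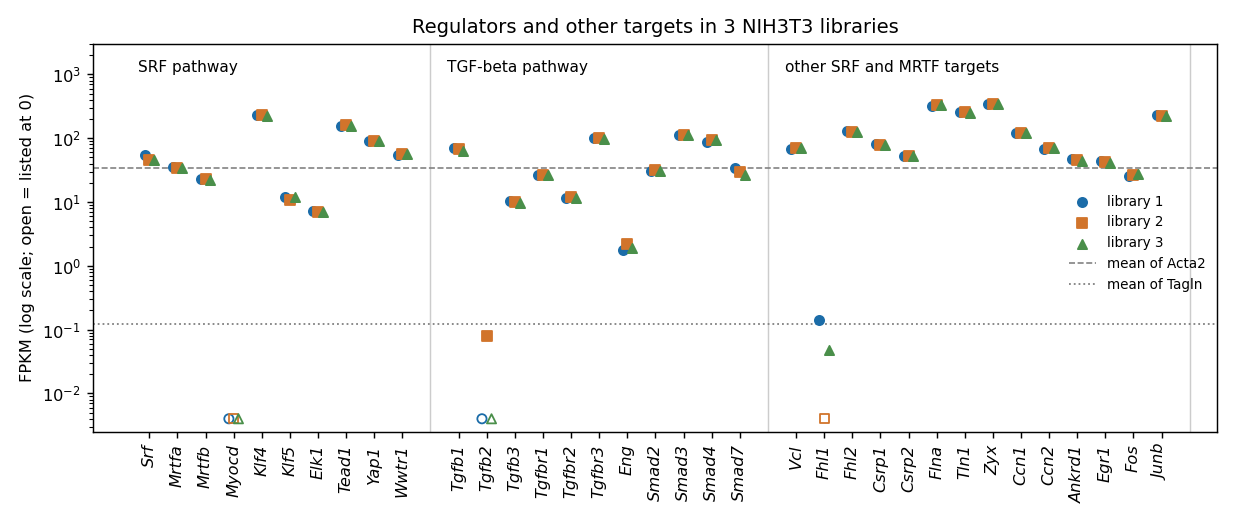
FPKM on a log axis of regulators and other targets, with 1 symbol per library, open symbols for values listed at 0, and lines at the means of Acta2 (34.6 FPKM) and Tagln (0.123 FPKM). Myocd sits at 0 in every library while Srf, Mrtfa and Mrtfb lie between 21.8 and 55.5 FPKM.

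Promoter sequence was set beside these levels, since SRF acts through the CArG box. RefSeq sequences of GRCm38.p6, from 250 bases before to 50 after the annotated start, were matched by symbol for 8 of the 10 contractile genes, and Tagln and Myh11 had no entry. They gave 9 windows, because Cald1 has 2 starts. An exact CArG box, which reads the same way on both strands, was present in 1 of the 9 windows and in 1.63% of all 32851 promoters. The window belonged to Myl9 (chr2:156775214-156775513, plus strand). With up to 1 letter of the element changed, a match was present in 5 of the 9 windows and in 21.1% of all promoters. The windows of Acta2 (chr19:34255324-34255623, minus strand) and Myl9 are shown because they set the abundant Acta2 beside a gene near 1 FPKM, with matches in capitals:
Acta2: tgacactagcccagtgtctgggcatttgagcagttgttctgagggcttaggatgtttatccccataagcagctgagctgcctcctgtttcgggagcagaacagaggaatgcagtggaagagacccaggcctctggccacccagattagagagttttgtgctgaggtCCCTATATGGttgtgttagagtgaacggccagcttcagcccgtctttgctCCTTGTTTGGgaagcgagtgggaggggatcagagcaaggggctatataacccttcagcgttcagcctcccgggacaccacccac
Myl9: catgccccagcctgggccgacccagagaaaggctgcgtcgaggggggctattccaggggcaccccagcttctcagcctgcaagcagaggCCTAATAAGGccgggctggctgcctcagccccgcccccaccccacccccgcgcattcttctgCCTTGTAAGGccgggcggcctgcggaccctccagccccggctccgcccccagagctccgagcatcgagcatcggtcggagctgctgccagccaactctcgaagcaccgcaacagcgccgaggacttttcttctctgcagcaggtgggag
In Acta2 both matches differ from the element by 1 letter and begin 84 and 34 bases before the start. In Myl9 the exact match begins 161 bases before the start and the other 99 bases before it.

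Exact CArG boxes also stood before related genes at both ends of the range of levels. Of 65 related genes with a promoter entry, 9 held an exact box. The following windows of 40 bases are shown to set the same element beside different levels, with the box in capitals:
Actg1 (chr11:120348561-120348600, minus strand): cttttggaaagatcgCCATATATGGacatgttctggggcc
Vcl (chr14:20929156-20929195, plus strand): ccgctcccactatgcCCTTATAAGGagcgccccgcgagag
Cnn2 (chr10:79988529-79988568, plus strand): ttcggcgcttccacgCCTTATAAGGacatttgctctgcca
Acta1 (chr8:123894824-123894863, minus strand): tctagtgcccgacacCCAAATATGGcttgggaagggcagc
Actc1 (chr2:114052898-114052937, minus strand): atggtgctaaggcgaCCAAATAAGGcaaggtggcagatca
Mean levels of these genes were 1005 FPKM for Actg1, 69.2 FPKM for Vcl, 66.4 FPKM for Cnn2 and 0.0687 FPKM for Acta1, while Actc1 was listed at 0. An exact box was thus found beside high and low levels alike. The letters CATTCC, on either strand, were present in 4 of the 9 windows of contractile genes and in 14.7% of all promoters, in Acta2, Tpm1, Lmod1 and the upstream start of Cald1. The letters GGGCGG were present in 6 of the 9 windows and in 35.7% of all promoters, and TATAAA in 1 of the 9, the downstream start of Cald1, and in 13.6%. A match describes the letters in the window only.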

How the data were processed

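The authors deposited FPKM per gene for 3 libraries. Per the methods and the submitters' processing notes, UMI-tools 1.0.0 extracted the UMIs, reads were mapped with HISAT2 2.0.4, reads sharing location and UMI were removed, and HTSeq 0.6.1 counted reads per gene. The build and strand setting for counting are not given in the sources used here. The 2 deposited tables carry the same FPKM for the 55573 genes. All columns were used, so 0 were left unused.

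Python 3.11.15, numpy 2.4.6, pandas 2.3.3, scipy 1.17.1 and matplotlib 3.10.9 were used. Library totals came from genes with a single isoform in GENCODE M21 (GRCm38), which lists 55480 of the gene IDs. FPKM multiplied by the mean isoform length and the total gave fragments within 0.02 of a whole number in all libraries for 99.2% of 26178 detected genes. Recovery and the chi-square test were tested on simulated data. Intervals are exact Clopper-Pearson 95% intervals, and floors are 3 fragments. Shared sequence was measured as 75-nt words on either strand. No count model was fitted, and no test was run on levels.

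The genes, gene lists and alternatives were chosen with earlier results of these data known. Named are the 10 genes, the fixed lists, genes overlapping them, and the protein-coding genes next in level to Acta2 and Tagln. Some genes first placed on the lists are not reported here, and list counts leave them out. The alternatives were leaving out each replicate, TPM, median-of-ratios scaling, the median, other limits and pseudocounts, no division by length, the longest isoform, and Tagln2 added to Tagln. Pooled fragments and the non-overlapped length of Tagln were added after the data were seen.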

Additional observations from a re-analysis of the deposited data

How the results depend on the processing

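Of 93 values recomputed under the alternatives, 72 stayed within 1 SD of the libraries or, where counts were concerned, within 1.5 times. With 3 libraries, a median or a mean without 1 replicate always lies within 1 SD of the mean. Such settings could not move a level or the log2 ratio, so the count of 72 is not a measure of stability. Rescaling to TPM raised the mean of Acta2 to 50.1, and the longest isoform lowered it to 24.3 FPKM. Both settings moved the means of Cnn1, Myl9, Tpm1, Tpm2, Cald1 and Des beyond their SD as well, with a range from 98.5 to 339.6 for Cald1. With the longest isoform, Myl9 (0.561 FPKM) lay above Des (0.541 FPKM). The number of contractile genes at 1 FPKM or more was 6. It was 4 with a limit of 5, with 1 or more asked of every library, or without replicate 3, and 10 with any value above 0. The log2 ratio of Acta2 to Tagln was 7.17 with the floor. It became 5.00 with a pseudocount of 1, 7.52 with a pseudocount of 0.1 and 7.74 without division by length. In settings chosen after the values were seen, it was 8.16 over pooled fragments and 6.57 with the non-overlapped length of Tagln. The value of 6.57 takes all 639 nt of that length as countable, though reads of 150 nt can reach from it into overlapped sequence. It therefore does not fully account for the overlap. With Tagln2 added to Tagln, the log2 ratio turned to -3.91, by construction of that sum. The spread of the contractile genes gave 0 calls by chi-square, also without each replicate, and on the log2(FPKM + 1) scale 0 of them reached an SD of 0.5. No paired analysis was possible because all libraries belong to a single condition. Depth limits the 4 lowest genes, which rest on 4 to 8 fragments each.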

Other observations

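Of 10 markers of skeletal and cardiac muscle, 2 had a mean of 1 FPKM or more, against 49.2% of protein-coding genes. Both are genes of the heart. They are named after their values were seen. Nkx2-5, a transcription factor of cardiac progenitors, had 13.2 FPKM in library 1, 14.4 in library 2 and 13.2 in library 3. Tnnt2, which encodes cardiac troponin T, had 12.6, 13.0 and 12.2 FPKM. The skeletal muscle factors Myod1, Myog and Myf5 and the sarcomeric Actn2 were listed at 0 in every library, and Myh6, a cardiac myosin heavy chain, had 0.0333 FPKM in library 3 and was listed at 0 in the others.

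Of 6 pericyte markers, Cspg4 reached a mean of 59.0 FPKM, while Kcnj8 and Abcc9 were listed at 0 and Rgs5, Mcam and Notch3 lay below 0.5 FPKM in every library. Of 6 epithelial markers, Krt14 had a mean of 8.39 FPKM, Epcam and Krt18 were listed at 0, and the summed level of the list stayed between 8.73 and 9.07 FPKM.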
